A study of Arabidopsis thaliana with 24 samples.

Results

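Leaves of Arabidopsis thaliana sampled 3 h after salicylic acid (SA) was given at ZT36 were compared with leaves labelled SA, ZT36 and 0 h. ZT is zeitgeber time, in hours counted from lights-on. Groups were taken as deposited. The comparison uses 6 of the 24 arrays of the study, 3 in each group, and 22746 of the 22810 probe sets, all but the 64 control probe sets of the array.

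The study asked how the response of leaf transcripts to SA depends on the hour at which it is given. All plants were wild type, grown in soil with a 12 h day length, and 23 days old. The labels give 24 h in constant light before treatment, the same for the ZT24 and ZT36 groups. Plants stayed in it afterwards, and true leaves were taken. The groups used here received 1 mM SA at ZT36 (3 h and 0 h), water at ZT36 (3 h and 0 h), and 1 mM SA at ZT24 (3 h and 0 h), with 3 arrays each. The labels call the 3 arrays of a group biological replicates and do not say whether leaves of several plants were pooled. A leaf holds mesophyll, epidermal, guard and vascular cells, so fewer cells of a type and less RNA per cell cannot be told apart.

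SA is a phenolic hormone that accumulates in leaves attacked by biotrophic pathogens. It acts through NPR receptors and TGA transcription factors to switch on defence genes, and the large load of secreted defence proteins is handled by chaperones of the endoplasmic reticulum (ER). Plants keep free SA in check by conjugating it to sugars, by methylation and by hydroxylation, and SA defence is known to trade off with growth and auxin signalling.

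The values are log2 expression, centred by probe set on the median over all 24 arrays. They show differences between arrays and hold no level, so genes are not compared with each other in abundance, and the leaf label could not be checked against the level of its markers. Differences are given on the log2 scale as the mean of the first group minus that of the second, each with the standard error (±) that limma gave, over 3 arrays in every group. "Rose" and "fell" are used only where the Benjamini-Hochberg adjusted p over all 22746 probe sets was under 0.05. Pairs of SA 3 h arrays had a Pearson r of 0.89 to 0.94 over the probe sets, and each array an SD of 0.56 to 0.59. For SA 0 h these were 0.69 to 0.78 and 0.29 to 0.3. On centred values both grow with the distance of a group from the median over 24 arrays. They therefore do not show which group had the closer replicates.

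The arrays labelled SA 0 h did not resemble those labelled water 0 h, which bears on every value below. Of the tested probe sets, 6603 (29%) differed between SA 0 h and water 0 h at ZT36, 3442 higher (15.1%) and 3161 lower (13.9%). Between SA 0 h and water 3 h 4463 (19.6%) differed, 2351 higher (10.3%) and 2112 lower (9.29%). Between water 3 h and water 0 h limma called 2 (0.00879%), with 3049 at an unadjusted p under 0.05. This count of 2 became 705 when replicate 1 of water 0 h was left out and 1355 with array weights. The mean absolute difference between group means was 0.285 for SA 0 h against water 0 h, 0.226 for SA 0 h against water 3 h and 0.139 for water 3 h against water 0 h. The cause was not tested. Values of SA 3 h against the water groups are therefore given beside many genes whose call, direction or size they change. Where no such value is given, the references need not give the same result. All of these comparisons share the SA 3 h arrays and are set side by side without reading their overlap.

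In all, 6762 probe sets (29.7%) passed the test between SA 3 h and SA 0 h, 3028 higher (13.3%) and 3734 lower (16.4%). Falls outnumbered rises, but the large differences were rises. At a log2 difference of at least 1, 914 probe sets were higher (4.02%) and 631 lower (2.77%). At 2 or more the counts were 242 (1.06%) and 60 (0.264%), at 3 or more 80 (0.352%) and 3 (0.0132%), and at 4 or more 28 (0.123%) and 0. The 3 SA values lay wholly above or wholly below the 3 values of SA 0 h at 9796 probe sets (43.1%), above at 4402 (19.4%) and below at 5394 (23.7%). Against water 3 h, 9133 probe sets (40.2%) differed, 4210 higher (18.5%) and 4923 lower (21.6%). Against water 0 h 9404 (41.3%) differed, 4409 higher (19.4%) and 4995 lower (22%).

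A single gene name was at hand for 13513 probe sets, which leaves 13355 genes at 1 probe set each. Of these, 1640 rose (12.3%) and 1971 fell (14.8%), with a median difference of -0.01. Against water 3 h 17% of these genes rose and 20% fell, and against water 0 h 17.5% rose and 20.8% fell. The counts given below for lists and families are to be read beside the shares of the same comparison. Among the 80 probe sets that rose by 3 or more, 35 carry a name here, and none of the 3 that fell by as much does. Genes without a single name here are not analysed.

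The largest rise among named genes was that of UGT76B1 (AT3G11340), which encodes a glucosyltransferase that conjugates SA. Its values were 8.34, 8.64 and 8.39 on the SA 3 h arrays, against -0.19, 0.02 and -0.02 on the SA 0 h arrays, a difference of 8.52 ± 0.13 or 367-fold (limma adjusted p = 1.8e-20). The groups lie far apart, and the 6 water arrays of ZT36 sat beside SA 0 h, between -0.34 and 0.16. AT5G03350, of the legume lectin family, was also far higher after SA, at 3.74, 4.03 and 4.05 on the SA 3 h arrays, against -0.98, -0.32 and -2.0 on the SA 0 h arrays (5.04 ± 0.38, 32.9-fold). The groups it was set against were not level with one another, with means of -1.1 in SA 0 h, -4.37 in water 3 h and -2.3 in water 0 h, so the rise was 8.32 against water 3 h and 6.25 against water 0 h.

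GRX480 (AT1G28480) encodes a glutaredoxin that binds TGA factors and is a classical SA target. It stood at 4.31, 4.36 and 4.78 in SA 3 h, against -0.23, -0.09 and -0.13 in SA 0 h, a rise of 4.63 ± 0.13 (24.8-fold, limma adjusted p = 1e-15). The arrays within each group were close together. The rise was 5.01 against water 3 h and 4.64 against water 0 h.

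The other 12 of the 15 largest rises ran from 3.80 to 4.62, and in all 15 the SA 3 h arrays lay above every SA 0 h array, as the rule for naming them required. Several encode proteins with domains known from immune signalling. AT3G48080, a close paralogue of the immune regulator EDS1, stood at 3.82, 4.12 and 4.19 in SA 3 h and 0.13, 0.63 and -0.72 in SA 0 h (4.03 ± 0.31). AT1G72900, which encodes a protein with the TIR domain of plant immune receptors, rose by 3.95 ± 0.22, and AT3G57700, of the protein kinase superfamily, by 4.37 ± 0.20. AT1G78410, which encodes a VQ-motif protein of the kind that partners WRKY factors, rose by 4.50 ± 0.16. AT1G13470, for which no function is stated here, rose by 4.62 ± 0.40.

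The other named genes among the 15 encode proteins of several families. AT3G47480, an EF-hand calcium-binding protein gene, rose by 4.19 ± 0.50, and AT5G52760, with a heavy-metal-associated domain, by 4.47 ± 0.76. AT5G52810 encodes a reductase in the synthesis of pipecolic acid, a signal of systemic immunity, and rose by 3.86 ± 0.23. AT5G51830, a fructokinase-like gene, rose by 4.34 ± 0.28, AT4G22530, a methyltransferase family gene, by 4.08 ± 0.29, and AT5G55450, a lipid-transfer-like protein gene, by 4.19 ± 0.67.

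The last of the 15, AT3G60420, of the phosphoglycerate mutase family, rose by 3.80 ± 0.31 on the probe set used. A second probe set of the same gene stood at 0.05 (limma adjusted p = 0.81), so the 2 disagree. Each of the 15 also passed the test against both water groups, at 4.18 to 8.66 against water 3 h and 3.52 to 8.40 against water 0 h. None of the 15 lost its call when any of the 6 arrays was left out in turn or after quantile normalization. Choosing the largest differences on these same arrays largely fixes both results, so neither is read as support.

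**Figure D1:**
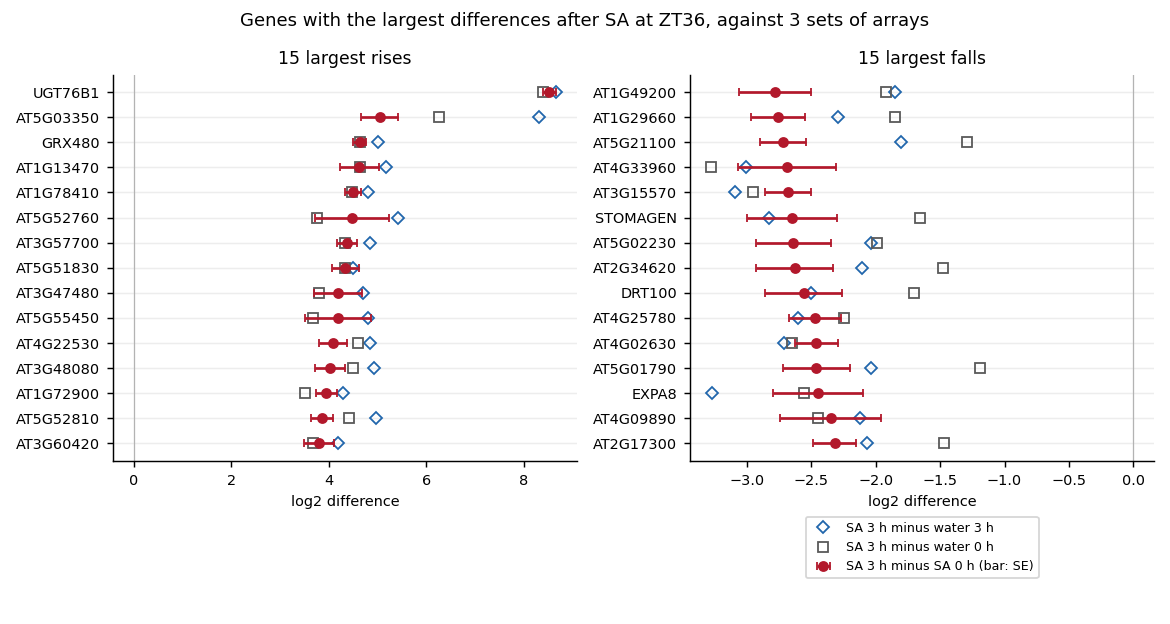
Log2 differences (x axis) of the 15 largest rises (left) and 15 largest falls (right) among named genes, by gene down the page. Filled circles with SE bars are SA 3 h minus SA 0 h, open diamonds SA 3 h minus water 3 h and open squares SA 3 h minus water 0 h, 3 arrays per group. The rises run from 3.80 to 8.52 and the falls from -2.78 to -2.32, and AT5G03350 is the rise whose value moves most with the arrays it is set against.

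Further genes below the 15 largest rises were picked after their values were seen. They include AT5G45000, a TIR-domain resistance gene family member (3.73 ± 0.16), AT4G18250, a receptor-like kinase gene (3.68 ± 0.16), and AT1G51790, a leucine-rich repeat receptor kinase gene (3.22 ± 0.17). AT3G28510, an AAA-type ATPase gene, rose by 3.62 ± 0.18 and AT3G51330, an aspartyl protease family gene, by 3.42 ± 0.31. The transporter family genes AT2G39210 and AT5G54860 rose by 3.22 ± 0.25 and 3.18 ± 0.21, and AT2G39210 stood at 5.00 against water 3 h and 4.41 against water 0 h. AT4G01700, a chitinase family gene, rose by 2.96 ± 0.25 here, beside 5.15 against water 3 h and 4.74 against water 0 h, since it already stood 1.78 higher in SA 0 h than in water 0 h.

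Among genes that make, conjugate or modify SA, 4 of 21 listed had a named probe set, and 3 rose and 0 fell, with a median of 0.85 beside -0.01 for all named genes. Beside UGT76B1, SAG101 (AT5G14930), a lipase-like partner of EDS1 kept on this list, rose by 0.79 ± 0.16, beside 0.59 against water 3 h and 0.41 against water 0 h. UGT74F1 (AT2G43840), an SA glucosyltransferase, stood at 0.25, 0.24 and 0.24 in SA 3 h, against -0.18, -0.06 and -0.09 in SA 0 h (0.35 ± 0.10, limma adjusted p = 0.014). The groups did not overlap, but leaving out replicate 1 of SA 0 h took the adjusted p to 0.059, and it stood at 0.25 against water 0 h (adjusted p = 0.066). BSMT1 (AT3G11480), which methylates SA, stood at 2.66, -0.02 and -0.28 in SA 3 h and at -0.10, -0.10 and -0.15 in SA 0 h, so that 1 array made up its difference of 0.90 ± 0.46 (adjusted p = 0.17).

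The UDP-glycosyltransferase family, to which UGT76B1 belongs, had 50 measured members. In this family 15 rose, 7 fell and 28 did not pass, with a median of 0.13, which sets 15 of 50 beside the 12.3% of all named genes that rose. After quantile normalization 12 rose and 7 fell. UGT73B5 (AT2G15480), a glycosyltransferase known from responses to pathogens and oxidative stress, stood at 1.92, 2.36 and 1.90 in SA 3 h, against 0.06, 0.41 and 0.28 in SA 0 h (1.81 ± 0.32). UGT87A2 (AT2G30140) rose by 1.72 ± 0.19 and UGT84A3 (AT4G15490) by 1.37 ± 0.20, and their values against water 3 h were 2.53 and 1.35. UGT74B1 (AT1G24100), a glucosyltransferase of glucosinolate synthesis, differed by -0.71 ± 0.15. Its fall was 0.40 against water 3 h, and it stood at -0.11 against water 0 h (adjusted p = 0.60).

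Of 32 genes listed for SA perception and response only 2 had a named probe set, GRX480 and WRKY53 (AT4G23810), and both rose. WRKY53, a WRKY transcription factor gene of defence and senescence, stood at 2.83, 2.58 and 2.97 in SA 3 h, against 1.12, -0.17 and 0.16 in SA 0 h (2.42 ± 0.29). The 2 groups do not overlap, although SA 0 h replicate 1 sat above the other arrays of its group. The rise of WRKY53 was 3.89 against water 3 h and 3.11 against water 0 h. Of 6 measured WRKY genes 3 rose and 0 fell, beside 12.3% and 14.8% of all named genes. The others that rose were WRKY6 (AT1G62300, 0.94 ± 0.17) and WRKY47 (AT4G01720, 0.83 ± 0.16), and the family median was 0.59. WRKY47 stood at 1.27 against water 3 h and 1.08 against water 0 h.

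At the cell surface, EFR (AT5G20480), the receptor for bacterial elongation factor Tu, rose. Its values were 1.56, 1.74 and 1.70 in SA 3 h, against -0.03, -0.05 and -0.14 in SA 0 h (1.74 ± 0.15, 3.33-fold). All 6 water arrays lay between -0.24 and 0.09, level with SA 0 h. BIK1 (AT2G39660), a kinase that relays signals from such receptors, stood at 0.45, 0.19 and 0.04 in SA 3 h and at 0.17, -0.13 and -0.41 in SA 0 h, and did not pass (0.35 ± 0.15, adjusted p = 0.093). Its groups overlapped. Leaving out replicate 1 of SA 0 h gave 0.50 with an adjusted p of 0.023, and array weights gave 0.41 with 0.025.

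Of 5 measured ER folding genes 3 rose, 0 fell and 2 did not pass. ATERDJ3B (AT3G62600), a DnaJ co-chaperone of the ER lumen, stood at 2.40, 2.55 and 2.48 in SA 3 h, against -0.03, -0.16 and -0.34 in SA 0 h (2.65 ± 0.21, 6.28-fold, limma adjusted p = 4.9e-09). CRT1b (AT1G09210), a calreticulin that folds glycoproteins, stood at 1.42, 1.76 and 1.60 in SA 3 h, against -0.65, -0.58 and -0.58 in SA 0 h (2.2 ± 0.18). ATERDJ2B (AT4G21180), a DnaJ protein of the ER translocation channel, rose by 1.45 ± 0.12. The median of the 5 was 1.45 beside -0.01 for all named genes, and against each water group 4 rose. Of all named genes 17% rose against water 3 h and 17.5% against water 0 h.

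Transcription factors known to drive ER chaperone genes also rose, by less. BZIP60 (AT1G42990), the transcription factor activated by IRE1 splicing in the unfolded protein response, stood at 0.60, 0.55 and 0.51 in SA 3 h, against -0.26, -0.06 and -0.37 in SA 0 h (0.78 ± 0.11), and differed by 0.69 from water 3 h and 0.41 from water 0 h. BZIP17 (AT2G40950), a membrane-anchored factor of the same response, rose by 0.87 ± 0.11. BZIP28 (AT3G10800), its relative, rose by 0.45 ± 0.14 (adjusted p = 0.018). The adjusted p was 0.11 when replicate 1 of SA 0 h was left out, and 0.084 or 0.051 when replicate 1 or 2 of SA 3 h was. BZIP28 differed by 0.23 from water 3 h and 0.19 from water 0 h, neither of which passed.

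Among SEC and VPS genes of membrane traffic the calls went both ways, with 6 of 19 higher, 2 lower and 11 not called (median 0.13). Of all named genes 12.3% were higher and 14.8% lower. SEC22 (AT1G11890), a SNARE of ER to Golgi traffic, stood at 0.31, 0.41 and 0.28 in SA 3 h, against -0.11, -0.33 and -0.25 in SA 0 h (0.56 ± 0.079), and differed by 0.58 and 0.48 from water 3 h and 0 h. VPS60.1 (AT3G10640), of the ESCRT sorting machinery, rose by 1.14 ± 0.13, beside 0.85 against water 3 h and 0.59 against water 0 h. SA 0 h stood 0.55 below water 0 h for this gene. KEU (AT1G12360), a regulator of vesicle fusion, and VPS20.1 (AT5G63880) rose by 0.70 ± 0.12 and 0.64 ± 0.15. Against water 3 h these last 2 stood at 0.21 and 0.05, and against water 0 h at 0.06 and -0.34, and neither passed.

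**Figure D2:**
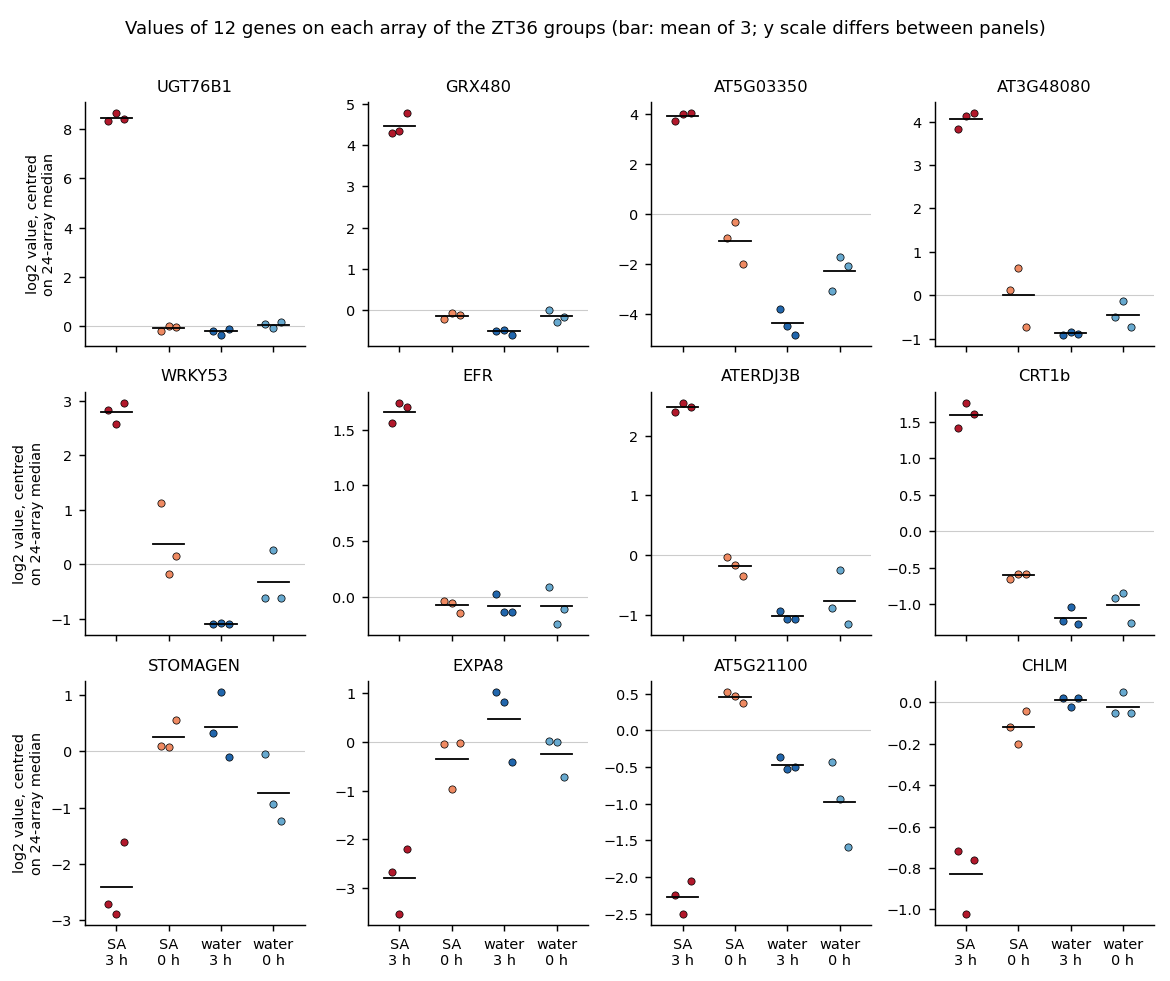
Values (y axis, log2, centred on the median of 24 arrays) of 12 genes on each of the 12 arrays of ZT36, in the order SA 3 h, SA 0 h, water 3 h and water 0 h. Points are arrays and bars the mean of 3. For UGT76B1 and EFR the other 9 arrays lie between -0.34 and 0.16 and between -0.24 and 0.09. GRX480 was 0.38 higher in SA 0 h than in water 3 h, and AT5G03350, STOMAGEN and AT5G21100 spread further among those 9.

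Of 8 measured touch, wound and early response genes 5 rose and 1 fell, with a median of 0.84. Of all named genes 12.3% rose and 14.8% fell. STZ (AT1G27730), a zinc-finger repressor induced by many stresses, stood at 2.3, 1.88 and 2.28 in SA 3 h, against -0.24, -0.43 and -0.49 in SA 0 h (2.54 ± 0.24). PUB24 (AT3G11840) and PUB22 (AT3G52450), U-box ubiquitin ligases that dampen pattern-triggered immunity, rose by 2.38 ± 0.25 and 1.07 ± 0.21. PUB23, the third of this group, stood at 0.61 ± 0.25 and did not pass (limma adjusted p = 0.072), though its groups did not overlap. It passed against water 3 h (1.11) and water 0 h (1.01).

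Other ubiquitin ligase genes of the same family fell. PUB25 (AT3G19380) stood at -1.55, -2.31 and -2.02 in SA 3 h, against 0.30, 0.02 and 0.43 in SA 0 h (-2.21 ± 0.15). PUB26 (AT1G49780) differed by -1.02 ± 0.12. In the U-box and RING family as a whole 2 of 12 rose and 3 fell, near the 12.3% and 14.8% of all named genes. AT2G28200, a zinc-finger gene of the early response list, differed by -1.39 ± 0.15, beside -0.84 against water 3 h and -1.35 against water 0 h.

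Of 8 measured genes for calmodulin-like and EF-hand proteins matched by symbol, 3 rose and 0 fell, beside 12.3% and 14.8% of all named genes. CML42 (AT4G20780) rose by 0.85 ± 0.19 and CML38 (AT1G76650) by 0.55 ± 0.10, and CML38 stood at 0.36 against water 0 h. CML43 (AT5G44460) passed by little, at 0.30 ± 0.11 (adjusted p = 0.049), and its call was lost in each of the 6 fits that left out 1 array. It stood at 0.16 against each water group and did not pass there.

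Beside the 12.3% and 14.8% of all named genes, 3 of 7 measured detoxification genes rose and 0 fell, with a median of 0.56. UGT73B5 and UGT87A2 were among those that rose. The third, AT2G04070, a transporter gene of the MATE family, rose by 0.64 ± 0.19, with an adjusted p of 0.059 when replicate 2 of SA 3 h was left out. Against each water group 5 of the 7 rose, beside 17% of all named genes against water 3 h and 17.5% against water 0 h. UGT73C1, UGT73B4, GSTU25 and AT2G04050 lay between 0.21 and 0.56 and did not pass.

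Among cytochrome P450 genes, 3 of 26 rose and 4 fell, near the shares of all named genes. CYP71B23 (AT3G26210) stood out, at 3.04, 3.16 and 3.00 in SA 3 h, against 0.05, -0.10 and -0.85 in SA 0 h (3.37 ± 0.36). CYP84A4 (AT5G04330), of arabidopyrone synthesis, rose by 1.32 ± 0.14. CYP71B28 differed by -0.89 ± 0.12 and CYP71B35 by -1.04 ± 0.13.

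**Figure D3:**
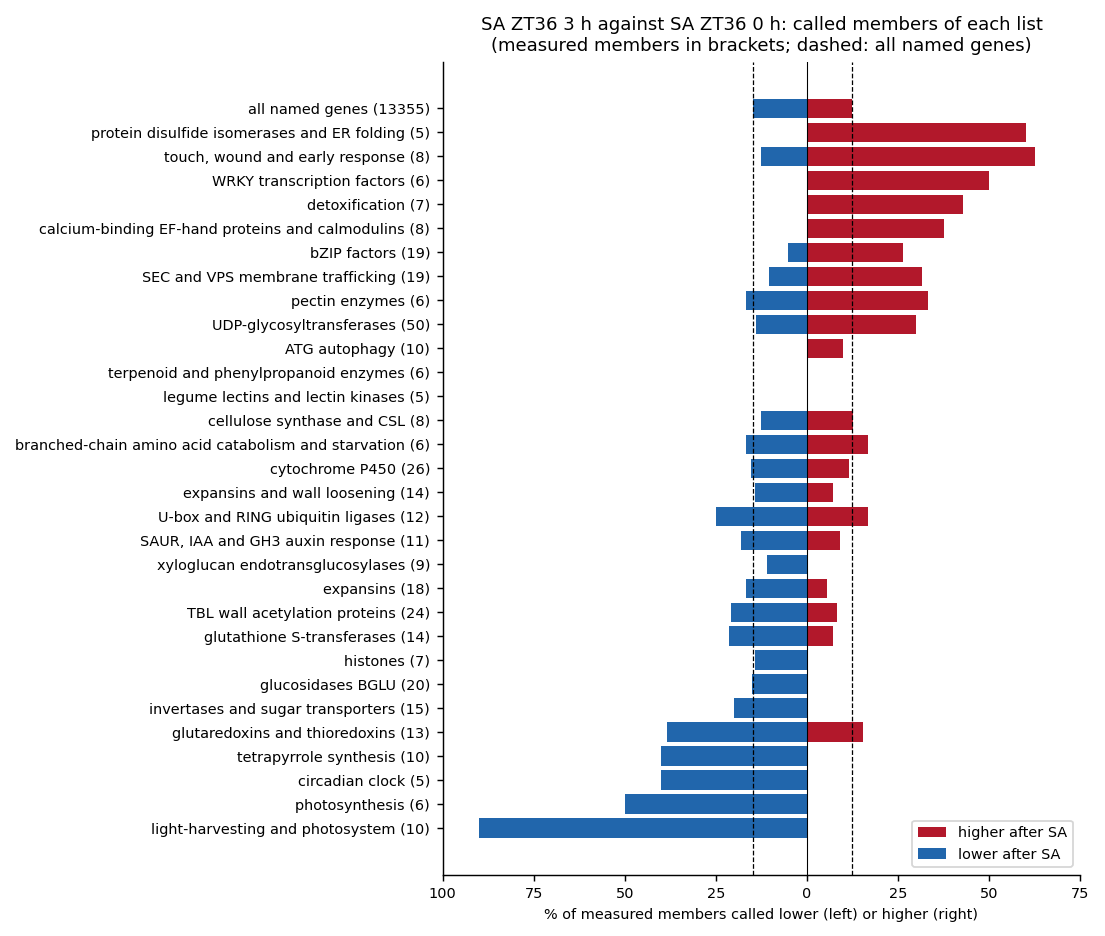
Share of measured members called lower (left, in blue) or higher (right, in red) between SA 3 h and SA 0 h, for the lists and families with at least 5 measured genes, whose number is in brackets. Dashed lines mark the shares of all 13355 named genes, 12.3% higher and 14.8% lower. In the light-harvesting and photosystem family 9 of 10 members are lower, and among the touch, wound and early response genes 5 of 8 are higher.

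The largest falls were smaller than the largest rises, from -2.78 to -2.32 over 15 genes. AT1G49200, a RING-type ubiquitin ligase family gene, stood at -2.19, -2.50 and -2.20 in SA 3 h, against 0.81, 0.03 and 0.59 in SA 0 h (-2.78 ± 0.28), and at -1.85 and -1.92 against water 3 h and 0 h. AT1G29660, a GDSL lipase gene, differed by -2.76 ± 0.21, and its neighbour in name AT1G29670, chosen after its value was seen, by -0.53 ± 0.15. Leaving out replicate 1 of SA 0 h took the adjusted p of AT1G29670 to 0.06, and it stood at -0.06 against water 3 h and 0.30 against water 0 h, neither of which passed. AT5G21100, an ascorbate oxidase family gene of the cell wall space, stood at -2.25, -2.50 and -2.06 in SA 3 h, against 0.52, 0.46 and 0.37 in SA 0 h (-2.72 ± 0.18).

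For AT5G21100 the reference again mattered, since SA 0 h lay 1.43 above water 0 h. The fall was 1.80 against water 3 h and 1.29 against water 0 h, with no overlap between SA 3 h and any of the other 9 arrays. Of the 15 falls, 8 were higher in SA 0 h than in water 0 h and 0 lower, where 13.3% of all named genes were higher. Choosing the lowest SA 3 h minus SA 0 h values favours high SA 0 h values, so nothing is read from this count. All 15 passed against both water groups, at -3.27 to -1.80 against water 3 h and -3.28 to -1.19 against water 0 h. These comparisons share the SA 3 h arrays by which the 15 were chosen, so this is not read as support.

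STOMAGEN (AT4G12970), the mesophyll peptide that promotes stomatal formation, fell. It stood at -2.71, -2.88 and -1.61 in SA 3 h, against 0.10, 0.08 and 0.56 in SA 0 h (-2.65 ± 0.35, 6.27-fold lower, limma adjusted p = 5.3e-06). All 3 SA 3 h arrays were below every other ZT36 array, and the fall was 2.83 against water 3 h and 1.66 against water 0 h. Of 4 measured guard cell and stomatal lineage genes 2 fell and 0 rose, beside 14.8% and 12.3% of all named genes. FMA (AT3G24140), which sets guard cell identity, stood at -0.40 ± 0.11 (adjusted p = 0.010), which became 0.063 when replicate 2 of SA 0 h was left out. SPCH and MUTE, which act earlier in the lineage, stood at 0.06 and -0.04 and did not pass.

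Of 18 expansin genes, whose products loosen cell walls, 1 rose and 3 fell, near or below the 12.3% and 14.8% of all named genes. EXPA8 (AT2G40610), an alpha-expansin, stood at -2.67, -3.52 and -2.20 in SA 3 h, against -0.05, -0.96 and -0.03 in SA 0 h (-2.45 ± 0.35). EXPA20 (AT4G38210) stood at -0.52 ± 0.086, a fall that did not pass against water 3 h (-0.15) or water 0 h (-0.14). EXPB1 (AT2G20750), a beta-expansin, rose by 0.92 ± 0.23. After quantile normalization 3 of the 18 rose and 2 fell.

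Of 24 TBL genes, whose products acetylate wall polysaccharides, 2 were higher and 5 lower, also near the shares of all named genes (12.3% and 14.8%). After quantile normalization 3 were higher and 3 lower. Against water 0 h 5 were higher and 3 lower, beside 17.5% and 20.8% of all named genes. TBL25 (AT1G01430) stood at -1.37, -1.60 and -1.40 in SA 3 h, against -0.25, -0.32 and 0.03 in SA 0 h (-1.28 ± 0.12). TBL35 (AT5G01620) and TBL32 (AT3G11030) rose by 0.67 ± 0.089 and 0.47 ± 0.097, and TBL35 stood at 1.01 against water 0 h. Of 6 genes matched by symbol as pectin enzymes 2 rose, 1 fell and 3 did not pass, beside the 12.3% and 14.8% of all named genes. The pectin methylesterase genes PME61 (AT3G59010) and PMEPCRF (AT5G53370) rose by 1.1 ± 0.13 and 1.03 ± 0.13. The member that fell, PMEAMT (AT1G48600, -0.86 ± 0.19), encodes a methyltransferase of phosphocholine synthesis and no pectin enzyme, and it stood at -0.25 and 0.22 against water 3 h and 0 h, neither of which passed.

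Other large falls carry a mix of functions. AT3G15570, an NPH3 family gene related to phototropism adaptors, differed by -2.68 ± 0.18 and AT2G34620, an mTERF family gene, by -2.63 ± 0.30. DRT100 (AT3G12610), which encodes a leucine-rich repeat protein, differed by -2.56 ± 0.30 and AT4G02630, of the protein kinase superfamily, by -2.46 ± 0.17. AT5G02230, of the haloacid dehalogenase family, differed by -2.64 ± 0.29, and AT4G25780, of the secreted CAP family, by -2.47 ± 0.20. In all 15 the SA 3 h arrays lay below every other array of ZT36. For SA 0 h the rule for naming them required this, and choosing low SA 3 h values favours it for water. The remaining members of the 15 are AT4G33960, AT5G01790, AT4G09890 and AT2G17300, at -2.69 to -2.32. Against water 0 h DRT100 stood at -1.70, AT2G34620 at -1.48, AT2G17300 at -1.47 and AT5G01790 at -1.19.

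In the photosynthesis list 3 of 6 measured genes fell and 0 rose, with a median of -0.46, and after quantile normalization 1 fell. Against water 0 h 2 fell and 1 rose, RCA, the rubisco activase gene, at 0.26. In the light-harvesting and photosystem family 9 of 10 measured genes fell and 0 rose, with a median of -0.40. After quantile normalization 2 of the 10 fell and the median was -0.10. Against water 3 h and water 0 h 9 and 7 fell, beside 20% and 20.8% of all named genes. PSB27 (AT1G03600), an assembly factor of photosystem II, stood at -0.70, -0.74 and -0.54 in SA 3 h, against -0.04, -0.11 and 0.06 in SA 0 h (-0.63 ± 0.078). LIL3:1 (AT4G17600), a light-harvesting-like protein of chlorophyll synthesis, differed by -0.71 ± 0.11, beside -0.55 against water 3 h and -0.26 against water 0 h (adjusted p = 0.071). LHCB4.2 (AT3G08940), an antenna protein gene, stood at -0.65 ± 0.12 and at 0.04 after quantile normalization, which turns its direction, beside -1.04 against water 3 h and -1.14 against water 0 h. PSAN (AT5G64040), of photosystem I, stood at -0.42 ± 0.09 and, after quantile normalization, at -0.06 (adjusted p = 0.75).

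In tetrapyrrole synthesis, the route to chlorophyll, 4 of 10 measured genes fell and 0 rose, also after quantile normalization. Of all named genes 14.8% fell and 12.3% rose. CHLM (AT4G25080), the magnesium protoporphyrin methyltransferase, stood at -0.72, -1.02 and -0.76 in SA 3 h, against -0.12, -0.20 and -0.04 in SA 0 h (-0.71 ± 0.08). The 6 water arrays lay between -0.05 and 0.05, so SA 3 h stood apart from all 9 others. CHLI2 (AT5G45930), a magnesium chelatase subunit, differed by -0.64 ± 0.17, beside -0.43 against water 0 h (adjusted p = 0.057). PORB (AT4G27440), a protochlorophyllide reductase, stood at 0.16, 0.11 and 0.68 in SA 3 h, against 1.43, 1.63 and 1.68 in SA 0 h (-1.27 ± 0.30). SA 0 h was 0.94 above water 0 h for PORB, and against water 0 h the difference was -0.32 (adjusted p = 0.44).

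In the glutaredoxin and thioredoxin family 2 of 13 rose, GRX480 among them, 5 fell and 6 did not pass. Of all named genes 12.3% rose and 14.8% fell. After quantile normalization 2 of the 13 rose and 1 fell. TRXF2 (AT5G16400), of photosynthetic enzyme control, stood at -0.56 ± 0.13 and at 0.10 after quantile normalization, with -0.92 against water 3 h and -0.95 against water 0 h. NTRC (AT2G41680), a thioredoxin reductase of the same system, stood at -0.46 ± 0.093, at -0.26 against water 3 h and at 0 against water 0 h (adjusted p = 0.98). After quantile normalization NTRC did not pass (adjusted p = 0.058).

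In the auxin list 1 of 4 measured genes rose and 1 fell, beside 12.3% and 14.8% of all named genes. GH3.3 (AT2G23170), which conjugates auxin to amino acids, stood at 3.49, 2.04 and 1.81 in SA 3 h, against 0.05, 0.00 and -0.17 in SA 0 h (2.49 ± 0.37). Replicate 1 of SA 3 h was highest, and the other arrays of the group still lay above every SA 0 h array. IAA29 (AT4G32280), a repressor of auxin response, stood at 0.19, -0.74 and -0.19 in SA 3 h, against 0.85, 0.86 and 1.26 in SA 0 h (-1.24 ± 0.35). Leaving out replicate 2 of SA 3 h took its adjusted p to 0.063. It differed by -2.59 from water 3 h and -2.60 from water 0 h.

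Clock genes gave other values against SA 0 h than against the water groups. GI (AT1G22770), an evening clock gene, stood at 0.33, -0.02 and 0.11 in SA 3 h, against 0.02, 0.96 and 0.13 in SA 0 h, and the overlapping groups did not pass (-0.23 ± 0.20, adjusted p = 0.48). The 6 water arrays lay between 2.83 and 3.27. GI was thus 2.83 lower in SA 3 h than in water 3 h and 2.92 lower than in water 0 h. Of 5 measured clock genes, 2 fell and 0 rose against SA 0 h with a median of -0.33, 5 fell against water 3 h with a median of -1.91, and 4 fell against water 0 h with a median of -2.29. After quantile normalization 4 fell against SA 0 h. Of all named genes 14.8% fell against SA 0 h, 20% against water 3 h and 20.8% against water 0 h.

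COR27 (AT5G42900), a night-phased regulator of cold and clock genes, stood at 1.43, 1.08 and 1.19 in SA 3 h, against 1.60, 2.24 and 2.05 in SA 0 h (-0.73 ± 0.22, adjusted p = 0.015). The adjusted p was 0.086 and 0.054 when replicate 2 or 3 of SA 0 h was left out, and 0.066 when replicate 2 of SA 3 h was. COR27 differed by -2.72 from water 3 h and -2.85 from water 0 h. AT5G52660, a MYB-like gene of the clock list, differed by -0.40 ± 0.09.

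HYH (AT3G17609), a light-signalling bZIP factor, rose in each comparison, by 1.28 ± 0.16 against SA 0 h, 3.90 against water 3 h and 3.97 against water 0 h. Its values were 0.04, 0.27 and 0.18 in SA 3 h, against -0.78, -1.40 and -1.16 in SA 0 h, with the 6 water arrays between -4.09 and -3.35. SA 0 h lay between SA 3 h and water, nearer to SA 3 h. MCCA (AT1G03090), a subunit of the leucine-degrading carboxylase, stood at 0.15, -0.67 and -0.63 in SA 3 h and -0.29, 0.21 and 0.09 in SA 0 h (-0.39 ± 0.30, adjusted p = 0.41), with the water arrays between 1.97 and 4.13.

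Other genes that passed against SA 0 h did not pass against the water groups or turned there. XTH32 (AT2G36870), a xyloglucan-modifying enzyme gene, stood at -1.59, -2.24 and -1.22 in SA 3 h, against 0.46, -0.23 and 0.45 in SA 0 h (-1.91 ± 0.26), and differed by -0.40 from water 3 h and 0.05 from water 0 h. TBL26 (AT4G01080) stood at -2.14 ± 0.32, beside -0.36 and -0.20. Neither gene passed against water. BGLU40 (AT1G26560), a beta-glucosidase gene, stood at -1.03 ± 0.23 here and at 0.93 and 1.06 against water 3 h and 0 h, both of which passed in the other direction. AT5G47330, a hydrolase family gene picked after its values were seen, did likewise, at -1.75 ± 0.36 beside 1.46 and 1.34.

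**Figure D4:**
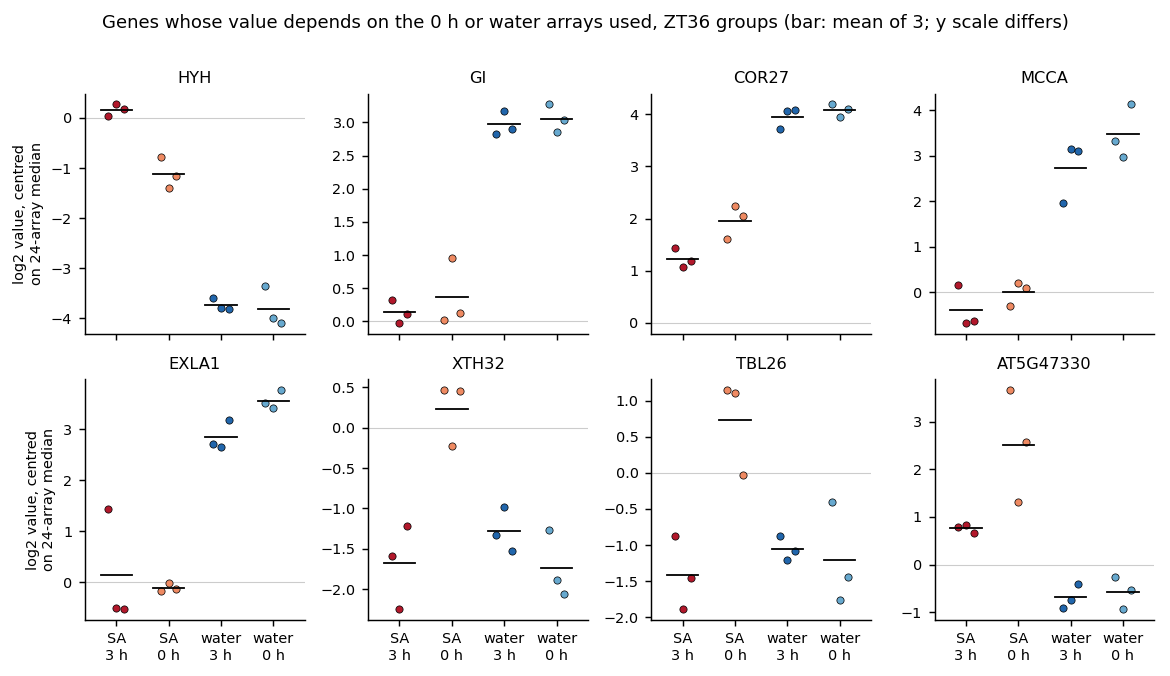
Values (y axis, log2, centred on the median of 24 arrays) of 8 genes on each of the 12 arrays of ZT36, in the order SA 3 h, SA 0 h, water 3 h and water 0 h, with bars for the mean of 3. For GI, MCCA and EXLA1 the SA 0 h arrays sit with SA 3 h, and for XTH32 and TBL26 the water arrays do. AT5G47330 is highest in SA 0 h, with a mean of 2.52 beside 0.77 in SA 3 h.

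The change over 3 h was next set against that in water at the same hour, as SA 3 h minus SA 0 h less water 3 h minus water 0 h. It differed at 5653 probe sets (24.9%), 2566 higher (11.3%) and 3087 lower (13.6%). UGT76B1 led with a difference of 8.78 ± 0.18, ahead of AT5G03350 (7.11 ± 0.53), AT5G52760 (6.12 ± 1.08) and AT5G55450 (5.32 ± 0.95). STOMAGEN had the lowest named value, at -3.82 ± 0.50, followed by AT5G13140, of the Ole e 1 pollen allergen family, at -3.54 ± 0.52, and DRT100 at -3.36 ± 0.43. Between SA 3 h and water 0 h AT5G13140 stood at -0.59 and did not pass. The 15 largest rises and 15 largest falls passed it in the same direction, which their choice by SA 3 h minus SA 0 h largely fixes. Since both SA groups differed from water, this contrast also carries the difference between SA 0 h and water 0 h.

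The comparison at ZT24, SA 3 h against SA 0 h, uses 6 other arrays and called 7211 probe sets (31.7%), 3248 higher (14.3%) and 3963 lower (17.4%). Of the 6762 called after ZT36, 5192 were also called with the same sign after ZT24, which is 76.8% of the ZT36 list and 72% of the ZT24 list, and 13 were called with opposite signs. Across all probe sets, which are not independent and share arrays and normalization, the differences correlated at r = 0.88 and rho = 0.76. A direct test of the difference between the hours called 136 (0.598%), 44 higher (0.193%) and 92 lower (0.404%) at ZT36, with 2253 at an unadjusted p under 0.05. Of the 1557 probe sets called after ZT36 alone, 26 passed this direct test. After quantile normalization the direct test called 1017, 475 higher and 542 lower, and without 1 array it called between 52, when replicate 2 of SA 3 h at ZT36 was left out, and 199.

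AT1G51850, a leucine-rich repeat receptor kinase gene, rose at both hours and by less at ZT36. It stood at 1.29, 1.72 and 1.81 in SA 3 h and 0.05, -0.02 and -0.11 in SA 0 h at ZT36 (1.64 ± 0.15). At ZT24 it stood at 4.12, 3.39 and 3.75 in SA 3 h and 0.12, 0.03 and 0.49 in SA 0 h (3.54), and the difference between the hours was -1.91 ± 0.21 (limma adjusted p = 0.00017). AT3G02840, of the armadillo repeat family, rose by 1.27 ± 0.24 at ZT36 and 3.02 at ZT24 (difference -1.75, adjusted p = 0.019, and 0.095 when only the arrays compared were fitted). AT3G13610, which encodes a feruloyl-CoA hydroxylase of coumarin synthesis, stood at -0.04 ± 0.23 at ZT36 and 1.64 at ZT24 (difference -1.68, adjusted p = 0.019, and 0.1 with only the arrays compared).

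AT1G13650, for which no function is stated here, stood at -0.56, -0.49 and -0.53 in SA 3 h and 0.03, -0.44 and -0.27 in SA 0 h at ZT36 (-0.30 ± 0.14) and did not pass there. At ZT24 it stood at -0.05, 0.03 and -0.04 in SA 3 h and 2.69, 2.60 and 2.50 in SA 0 h (-2.62), and the difference between the hours was 2.32 (adjusted p = 2.2e-06). The 3 h arrays of the 2 hours lay closer together than the 0 h arrays, which were high at ZT24. AT3G21670, which encodes a transporter of the nitrate and peptide family and was chosen after its values were seen, stood at -1.76, -2.05 and -1.96 in SA 3 h and 0.52, 0.30 and 0.34 in SA 0 h at ZT36 (-2.31 ± 0.15, beside -1.37 and -1.22 against water 3 h and 0 h). At ZT24 it stood at -0.94, -0.30 and -0.33 in SA 3 h and 0.42, 0.74 and 0.79 in SA 0 h (-1.17). The difference between the hours was -1.14 (adjusted p = 0.016, and 0.06 with only the arrays compared).

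**Figure D5:**
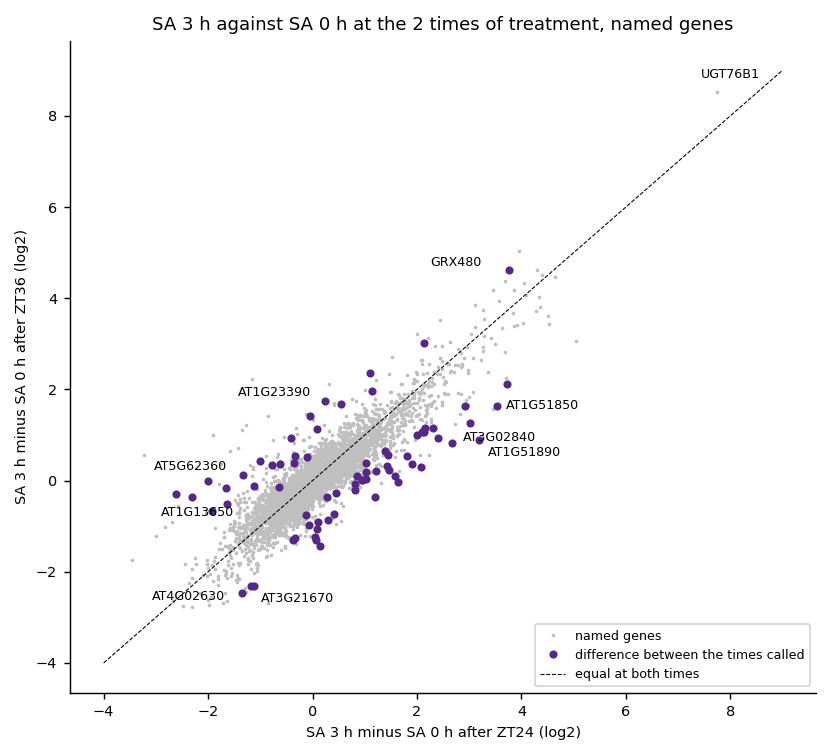
Log2 difference between SA 3 h and SA 0 h at ZT36 (y axis) against the same at ZT24 (x axis) for the 13355 named genes. Purple points are the genes whose difference between the hours passed the test, and the dashed line marks equal differences. UGT76B1 lies at 8.52 and 7.75, above the line by 0.76 ± 0.18, which did not pass (limma adjusted p = 0.068). AT1G51850 (1.64 and 3.54) and AT1G13650 (-0.30 and -2.62) lie further from the line.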

How the data were processed

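RNA from true leaves was labelled and hybridised to Affymetrix Arabidopsis arrays, 1 per sample. The authors deposited log2 values of 22810 probe sets, made with RMA per the submitters' processing notes, which give no version. The log base is that of RMA and is not stated with the values. Each probe set was centred on its median over the 24 arrays (largest absolute median 5e-07), a step the labels do not state. Centring removes levels and keeps differences, so signal over background is unknown, and precision is limited by the number of arrays. Array medians lay between -0.035 and 0.033.

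Linear models with a mean per group were fitted to all 24 arrays with limma 3.58.1 in R 4.3.3 (16 residual and 4.03 prior degrees of freedom), with 2-sided moderated tests and Benjamini-Hochberg adjustment over 22746 probe sets at 0.05. Figures used matplotlib 3.10.9 in Python 3.11.15. The labels call the arrays biological replicates without naming separate plants. The p-values therefore set each difference against the spread between these samples, estimated over all 24 arrays and moderated by limma.

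Names come from the platform annotation, updated by gene identifier through a RefSeq table of TAIR10.1 (13436 matched). Of the tested probe sets 9233 have no single name, 503 of them listing several genes. For each gene the plain probe set with the lowest identifier was kept. No coordinates are given. What genes are known to do is background knowledge, as the tables give no functions. Close paralogues may share signal on a probe set.

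The genes named are the 15 largest rises and falls that passed with groups that did not overlap, up to 4 called members per list or family of at least 3 measured genes, any measured member of a list, the 6 largest each way in the tests against water and against ZT24, and GI, UGT76B1, GRX480 and WRKY53. The others are stated as chosen after their values were seen. The comparison, the 20 lists (486 entries, 80 measured) and the 54 families (25 with at least 3 members) were chosen with earlier results of these data known. Alternatives were quantile normalization, array median centring, a fit to only the arrays compared, array weights, a prior that is robust and trended, a filter on SD, 1 probe set per gene, other thresholds, a block on runs of 8 title numbers, other reference arrays and each array left out. A count of promoter motifs was planned and is not reported, because no promoter sequences were used here.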

Additional observations from a re-analysis of the deposited data

Results flagged for a closer look

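The difference between SA 3 h and SA 0 h was itself tested between the hours of treatment, ZT36 minus ZT24, and differed at 136 probe sets. Lower at ZT36 were AT1G51890 (-2.28) and AT1G51850 (-1.91), both leucine-rich repeat kinase genes, AT2G44380, of the DC1 domain family (-1.83), AT1G32920 (-1.77), AT3G02840 (-1.75), AT3G13610 (-1.68), AT2G17300 (-1.18), AT3G21670 (-1.14) and AT4G02630 (-1.11). Higher at ZT36 were GRX480 (0.86), AT1G54050, a small heat-shock protein gene (1.47), AT2G34930, of a leucine-rich repeat resistance family (1.49), AT1G23390, a Kelch F-box gene (1.52), AT2G27420, a cysteine proteinase gene (1.95), AT5G62360, of the invertase inhibitor family (1.99), and AT1G13650 (2.32).

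AT1G51850, AT1G32920, AT3G02840, AT3G13610, AT3G21670, AT2G27420 and AT1G13650 kept their call in all 12 fits that left out 1 array and after quantile normalization. When only the arrays compared were fitted, 4 of these 7 lost it: AT3G02840 (adjusted p = 0.095), AT3G13610 (0.1), AT3G21670 (0.06) and AT2G27420 (0.055). So did GRX480 (0.12) and AT2G34930 (0.07). The call was lost in 8 of the 12 for AT1G51890, 2 for AT2G44380, 9 for AT2G17300, 10 for AT4G02630, 9 for GRX480, 5 for AT1G54050, 6 for AT2G34930, 2 for AT1G23390 and 5 for AT5G62360. After quantile normalization it was also lost for AT1G51890 (-1.10, limma adjusted p = 0.25), AT2G44380 (-0.52, adjusted p = 0.60) and AT5G62360 (0.62, adjusted p = 0.65). At ZT36 alone AT1G51890 stood at 0.90 ± 0.34 (adjusted p = 0.049), lost in 5 of the fits that left out 1 array, and AT2G44380 at 0.83 ± 0.25, lost without SA ZT36 3h replicate 1 or SA ZT36 0h replicate 3 (adjusted p = 0.055 each). Against water 0 h AT1G51890 stood at 0.48 and AT2G44380 at 0.53, and neither passed (adjusted p = 0.29 and 0.10).

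AT1G32920 stood at 0.49, 0.03 and 0.41 in SA 3 h and 0.06, -0.29 and 0.25 in SA 0 h at ZT36, and at 0.69, 0.43 and 1.03 in SA 3 h and -1.54, -1.21 and -1.32 in SA 0 h at ZT24. At ZT36 its difference of 0.30 did not pass, while that of 0.48 against water 3 h did (limma adjusted p = 0.024). AT1G23390 rose by 1.74 ± 0.21 at ZT36 and stood at 0.23 at ZT24, and SA 3 h differed by 0.33 from water 3 h and -0.05 from water 0 h at ZT36, neither of which passed. GRX480 rose by 4.63 at ZT36 and 3.77 at ZT24.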

How the results depend on the processing

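The calls rest on 3 arrays per group and on the arrays labelled SA 0 h, and signal over background is unknown. The 6762 probe sets called between SA 3 h and SA 0 h numbered 3585 with 1 probe set per gene, 1545 with a log2 difference of at least 1, 3616 among named probe sets only (chosen after seeing the data) and 5681 to 6172 without 1 array. With 1 probe set per gene, with the log2 threshold and without 1 array, the 9133 against water 3 h became 4916, 2520 and 8188 to 8553, and the 9404 against water 0 h became 5102, 2683 and 8541 to 8875. The 5653 of the contrast with the change in water became 2904, 1997 and 4923 to 5911 under these settings. The 136 between the hours became 1017 after quantile normalization, 89 with the arrays compared alone, 72 with 1 probe set per gene, 82 with the log2 threshold, 19 at an adjusted p of 0.01 and 52 to 199 without 1 array (52 without SA ZT36 3h replicate 2, 55 without SA ZT36 0h replicate 2, 80 without SA ZT24 0h replicate 1). The 6603 between SA 0 h and water 0 h became 3545 with 1 probe set per gene, 1011 with the log2 threshold and 5225 to 6639 without 1 array. The 2 between water 3 h and water 0 h became 1 after quantile normalization and with 1 probe set per gene, 0 with the arrays compared alone, the log2 threshold or an adjusted p of 0.01, 1355 with array weights, and 0 to 705 without 1 array (705 when replicate 1 of water 0 h was left out, 138 for replicate 3 of water 3 h). Deviations from group means in the same run of title numbers correlated at r of -0.18, -0.11 and 0.09 between SA 3 h and SA 0 h at ZT36. In water at ZT36 r was 0.28, -0.36 and 0.38, and in SA at ZT24 0.23, -0.07 and -0.06. With so few runs these values cannot decide whether the arrays were matched. A replicate block on the runs gave 6992 calls, 5855 against water, 156 between the hours, 9313 and 9552 against the water groups and 11 within water.

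Listed here are named genes whose sign changed and that passed with at least 1 of the 2 settings. Among those passing with neither, the sign changed for 9 after quantile normalization, 9 with water 3 h and 11 with water 0 h. Some listed values lie near no difference. Against water 0 h the limma adjusted p was 0.98 for NTRC, 0.91 for XTH32 and 0.90 for AT1G23390. After quantile normalization TRXF2 (0.10) and LHCB4.2 (0.04) turned. With water 3 h in place of SA 0 h the sign turned for EXLB1 (0.14), AT5G47330 (1.46), BZIP53 (-0.06), EXLA1 (-2.71), IVD (-0.44), CSLC5 (0.10) and BGLU40 (0.93). With water 0 h it turned for RCA (0.26), NTRC (0), EXLB1 (0.17), VPS20.1 (-0.34), AT5G47330 (1.34), BZIP53 (-0.29), GR (0.27), LTI30 (-2.39), EXLA1 (-3.42), IVD (-1.22), CSLC5 (0.65), APG8A (-0.30), EXO (-0.61), EIN3 (-0.43), AT1G29670 (0.30), BGLU40 (1.06), PMEAMT (0.22), AT1G23390 (-0.05) and XTH32 (0.05). The cause was not tested.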

Other observations

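Some genes not described above were high on a single SA 3 h array. SA ZT36 3h replicate 1 stood at 3.75 for the dehydrin gene LTI30, beside 0.56 and 0.20 on the other SA 3 h arrays, against -0.24, 0.42 and -0.01 in SA 0 h. The same array was highest for EXLA1 (1.44, beside -0.50 and -0.52), for PYK10, a root-abundant beta-glucosidase (1.47, beside 0.11 and -0.26), and for the peroxidase gene PRX52 (1.31, beside 0.39 and -0.24). PRX52 passed at 0.69 ± 0.23 (limma adjusted p = 0.031) and lost its call in 5 of the 6 fits that left out 1 array, at 0.28 (adjusted p = 0.28) without replicate 1 of SA 3 h. Against water 3 h PRX52 stood at 0.49 and did not pass (adjusted p = 0.11). LTI30, EXLA1 and PYK10 did not pass. Of the root list 0 of 3 genes passed, and the one flower gene measured, AT5G45880, stood at -0.12.

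In the family of sugar transporters and invertases 3 of 15 genes fell and 0 rose, and after quantile normalization 1 fell, with medians of -0.08 and -0.04. The share that fell is near the 14.8% of all named genes, of which 12.3% rose. SWEET17 (AT4G15920), a vacuolar fructose carrier, stood at -1.51, -2.10 and -1.46 in SA 3 h, against -0.31, -0.44 and -0.36 in SA 0 h (-1.32 ± 0.36, and -0.75 with adjusted p = 0.20 after quantile normalization). SWEET1 (AT1G21460), a plasma membrane glucose carrier, stood at -0.76 ± 0.13, beside -0.44 against water 3 h and -0.60 against water 0 h. Among glutathione S-transferases 1 of 14 rose, GSTU27 (AT3G43800, 1.00 ± 0.14), and 3 fell, with GSTU18 (AT1G10360) at -1.52 ± 0.14 and a family median of -0.04. These shares are near the 12.3% and 14.8% of all named genes. BGLU44 (AT3G18080), a beta-glucosidase gene, stood at -0.16, -0.88 and -0.45 in SA 3 h, against 1.21, 1.94 and 1.62 in SA 0 h (-2.09 ± 0.23), with all 6 water arrays higher than both groups, between 2.09 and 2.67. Of 6 branched-chain amino acid catabolism genes, 1 rose and 1 fell against SA 0 h, with MCCB (AT4G34030) at -0.71 ± 0.18, while 3 fell against water 3 h and 5 against water 0 h. Of all named genes 12.3% rose and 14.8% fell against SA 0 h, and 20% and 20.8% fell against water 3 h and 0 h. MCCB stood at -1.83 against water 3 h and -2.20 against water 0 h.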
